A study of Mus musculus with 14 samples.

Results

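The DNA replication machinery and nucleotide supply set held 50 mouse genes in 8 functional classes, taken by name from a list. That list was chosen with earlier results of these data known, and its genes were read from the probes that the array annotates with those names. All 50 were among the 21348 genes tested across the series. The samples were cultures of mSCC-38, a mouse line from a skin squamous cell carcinoma that had been induced chemically with DMBA and TPA. Cells received Si1AK (n = 4 arrays) or Si2AK (n = 3), which are different siRNAs against the long non-coding transcript AK144841, or a control siRNA, SiC (n = 3), each delivered with RNAimax and harvested at 72 h, and untransfected cells (NT, n = 4) had no agent and no stated time. All groups shared the same line, so every value describes 1 tumour-derived cell line grown in DMEM with serum. The labels do not state whether replicates came from different cultures, and the p-values therefore reflect the spread among these arrays alone, which may be technical. The targeted transcript was not analysed here.

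Before a cell can copy its DNA, the origin recognition complex, CDC6 and CDT1 load the MCM2 to MCM7 ring on replication origins, and geminin blocks CDT1 after S phase has begun. CDC45 and the GINS complex then turn the ring into an active helicase, a step that needs the CDC7 kinase and its activator DBF4. Polymerase alpha with primase starts each strand, replication factor C loads the PCNA clamp, polymerases delta and epsilon extend, and FEN1, DNA2, RNase H2 and DNA ligase 1 join the fragments of the lagging strand. Ribonucleotide reductase, thymidylate synthase and thymidine kinase 1 supply the deoxynucleotides. Many of these transcripts are known to be made in late G1 and S phase under E2F transcription factors.

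Every member was well above background on all 14 arrays and none was saturated or lacked a value. Levels are given as log2 of the processed signal minus the 75th percentile of the same array, so 0 is that percentile and a difference of 1 is a doubling. The arrays lay on 2 slides of 7. Si2AK replicate 2 and SiC replicate 1, both on slide 1, stood apart with 84.9% and 90.5% of probes well above background, where the other arrays had 52.7% to 60.1%. The epithelial label was checked on 10 keratinocyte genes. Of these, 8 were well above background on all arrays, Krt5 and Krt14 included, while Cdh1 passed on only 2 arrays.

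The siRNA groups had lower levels of replication genes than either control group, and the difference was larger and wider in reach with Si2AK. A gene was called at a Benjamini-Hochberg adjusted p below 0.05 over all genes (limma). With Si2AK, 33 of 50 members fell relative to SiC, where 4.67% of all genes were called lower. With Si1AK, 7 of 50 fell relative to SiC, against a background of 1.22%. Against NT, 43 members were lower with Si2AK (background 7.69%) and 24 with Si1AK (background 3.04%). These comparisons share the SiC or the NT arrays and are not independent of each other. No member was called higher in any of the 6 comparisons (limma), and none was higher at an unadjusted p below 0.05. Among all genes, 3.18% and 8.53% were called higher with Si1AK and Si2AK against SiC, 4.03% and 7.98% against NT, and 6.33% in Si2AK against Si1AK.

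The median difference over the 50 members was -0.53 for Si2AK against SiC and -0.27 for Si1AK against SiC, where the median of all genes was -0.019 and -0.060. Against NT it was -0.64 with Si2AK and -0.41 with Si1AK, beside 0.023 and -0.088 for all genes. The control siRNA gave a median of -0.14 against NT, with no member and no other gene called (limma, background 0%). At an unadjusted p below 0.05, 9 members were lower, where 1584 of all 21348 genes passed in either direction. Quantile normalization moved the median of all genes to 0.061 for Si1AK against SiC and to -0.041 for Si2AK against Si1AK (0.096 before), while the member medians there were -0.32 and -0.30. RNA came from bulk cultures, in which fewer cells of a type and less RNA per cell cannot be told apart.

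The same order appeared on single arrays. The median deviation of the 50 members from the NT mean was -0.48, -0.41, -0.37 and -0.35 on the Si1AK arrays and -0.62, -0.68 and -0.68 on the Si2AK arrays, while it was -0.28, -0.04 and -0.07 on the SiC arrays and -0.04, 0.04, 0.03 and -0.03 on the NT arrays. Every siRNA array against AK144841 lay below every control array, and SiC replicate 1 was the lowest control. The count of 7 for Si1AK against SiC depended on single arrays. Leaving out SiC replicate 1 gave 14 calls (1.12% of all genes called lower) and leaving out SiC replicate 3 gave 2 (1.07%). Only 1 call was left when the array omitted was SiC replicate 2, or the first or the second Si1AK replicate (0.81%, 0.45% and 0.43% of all genes). The count was 16 to 20 under the other 3 normalizations (1.67% to 1.84% of all genes), which gave 39 or 40 for Si2AK (6.45% to 6.72%). Fitted on the compared groups alone, without the spread shared over all 14 arrays, limma called no member for either siRNA against SiC (38 members for Si2AK and 17 for Si1AK at an unadjusted p below 0.05). These fits called 0.09% of all genes lower for Si2AK and 0.34% for Si1AK. Within slide 1, where SiC replicate 1 is the only SiC array, the median difference was -0.36 for Si2AK and -0.12 for Si1AK, and within slide 2 it was -0.63 and -0.30. The median was negative on both slides.

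**Figure D1:**
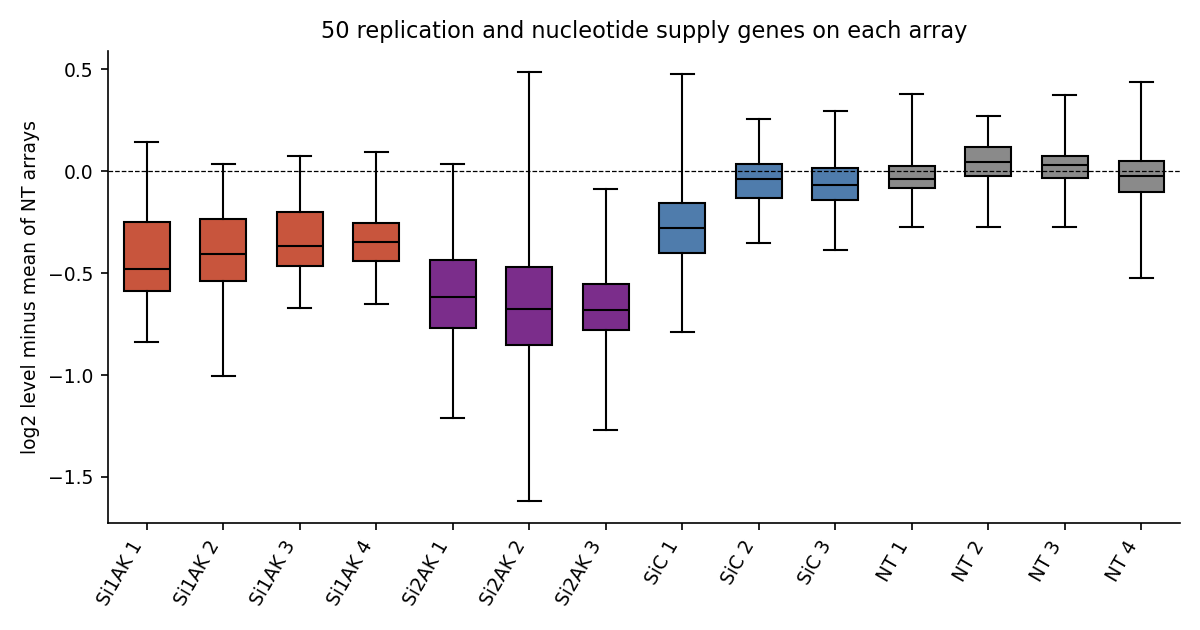
Log2 level of the 50 members on each of 14 arrays minus the mean of the NT arrays (y axis), for Si1AK, Si2AK, SiC and NT (x axis). Boxes span the quartiles, the line is the median and whiskers reach the lowest and highest member. The Si2AK medians lie at -0.62 to -0.68, the Si1AK medians at -0.35 to -0.48, and SiC replicate 1 lies at -0.28.

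Complete separation of arrays was frequent among the members. All Si2AK values lay below all SiC values for 39 of 50 members, where 9.34% of all genes did so, and all Si1AK values lay below all SiC values for 18, where 8.85% did so. The members varied less within groups than all genes, so the sets are unlike. Their median SD was 0.095, 0.106 and 0.159 with Si1AK, Si2AK and SiC, beside 0.136, 0.194 and 0.254 for all genes. Against NT the counts were 46 with Si2AK (12.7% of all genes), 35 with Si1AK (12.2%) and 6 with SiC (4.32%), and Si2AK lay below Si1AK for 24 (12%). In 45 members the difference from SiC was more negative with Si2AK than with Si1AK. The genes called lower with both siRNAs against SiC were Cdc6, Mcm5, Mcm7, Gins1, Pold3 and Rrm1, and these 6 were also lower than NT with both. Of the Si2AK calls against SiC, 26 of 33 held whichever array was left out, and Pola2, Pold1 and Pcna held in 3 of the 6 such fits, Orc5 and Gmnn in 2, and Rpa1 and Tyms in 1. Against NT, 35 of 43 calls with Si2AK and 16 of 24 with Si1AK held throughout. On the brightest probes, Mcm8 was called with Si1AK only, 27 members with Si2AK only, and 16 with neither. Orc2, Gins2, Gins3, Cdc45, Cdc7 and Rfc1 were called in none of the 4 siRNA comparisons with a control.

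**Figure D2:**
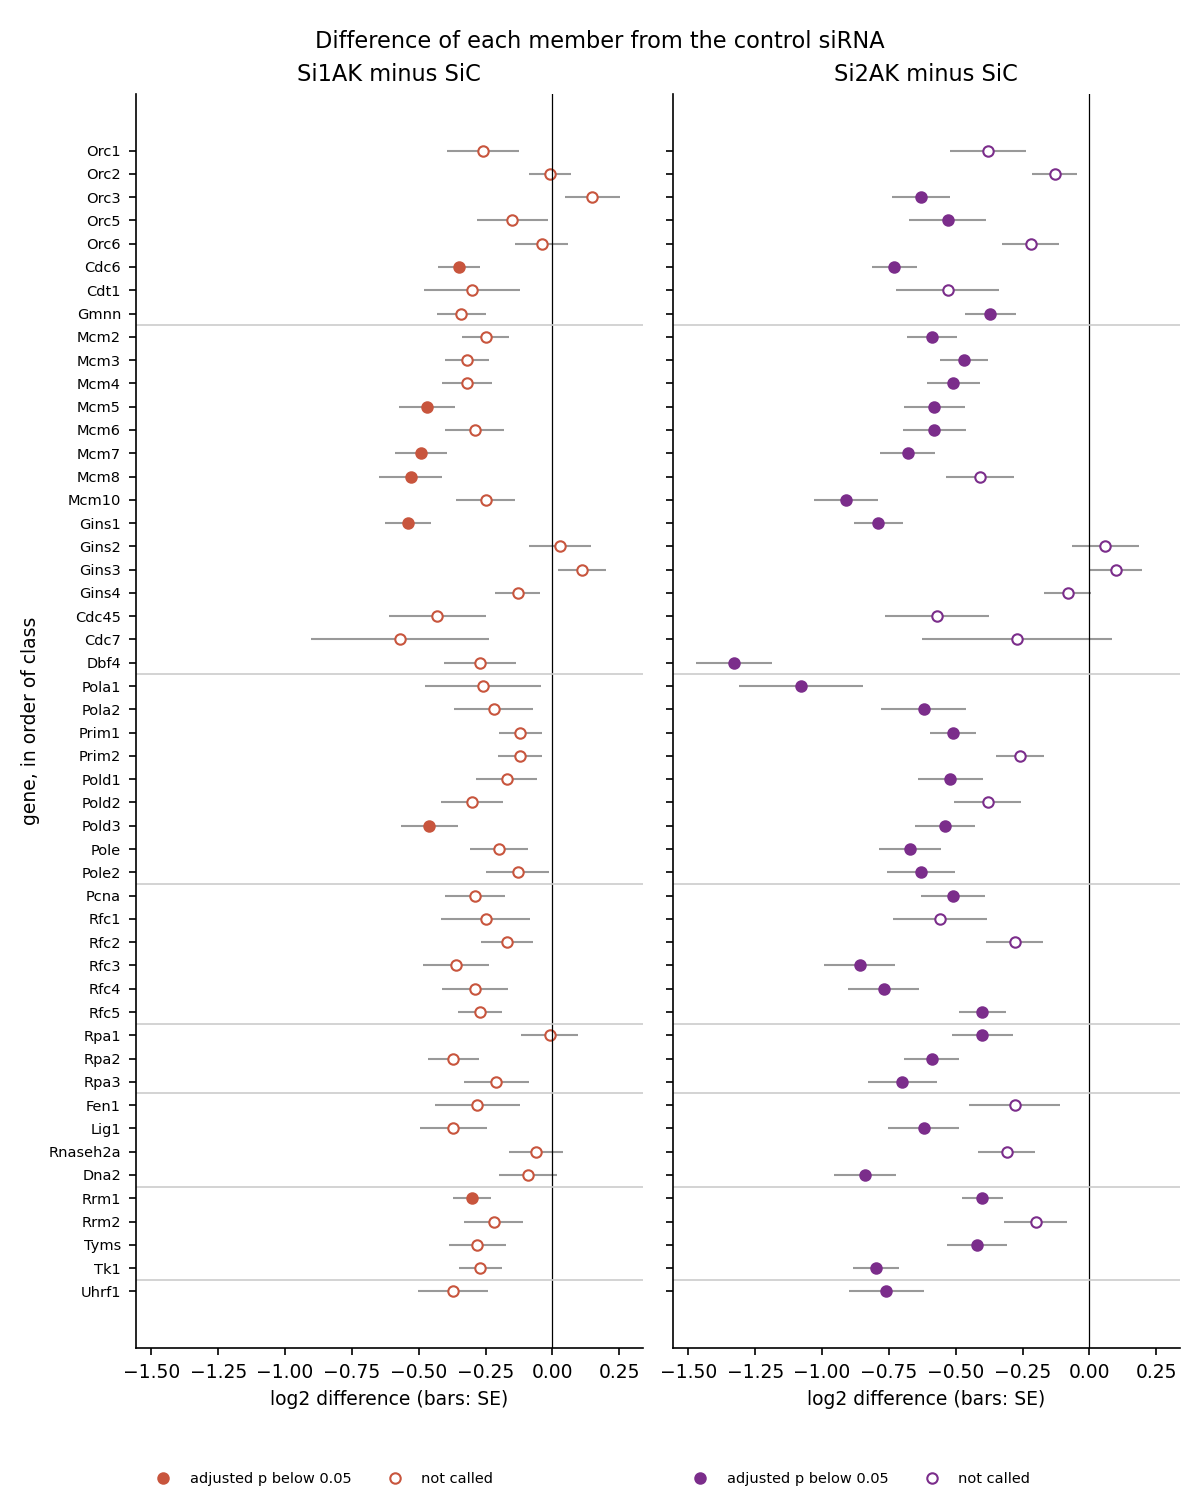
Log2 difference of each member from SiC (x axis, bars show the SE of limma) for Si1AK (left) and Si2AK (right), with genes in class order down the page. Filled points have an adjusted p below 0.05: 7 members for Si1AK and 33 for Si2AK, all left of 0.

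Promoter windows of these genes were searched for short sequence words. RefSeq windows of 300 bases on build GRCm38.p6, most of each lying before the transcription start, were found for 42 members by symbol. Both strands were searched for TTCCCGC and TTGGCGC, words of the kind that E2F proteins bind. The second word can overlap its own reverse complement. At least 1 word was in the first window of 22 of 42 members (52.4%), and in 1874 of all 27025 genes (6.9%). The 27025 genes were all those with a window, detected on these arrays or not, while every member was detected, so the sets are unlike. A word was in 17 of 29 members called in Si2AK against SiC (58.6%) and in 5 of 13 not called (38.5%). Whether these shares differ was not tested. A match is a description of letters and not a binding site. The 5 members below with both siRNA calls and a window (Gins1 has none) are followed by Pola1, which holds 4 words, and by Dbf4, the member with the largest fall, whose window holds none. Capitals mark a word or its reverse complement, GCGGGAA or GCGCCAA.
Cdc6, chr11:98907901-98908200 (+ strand): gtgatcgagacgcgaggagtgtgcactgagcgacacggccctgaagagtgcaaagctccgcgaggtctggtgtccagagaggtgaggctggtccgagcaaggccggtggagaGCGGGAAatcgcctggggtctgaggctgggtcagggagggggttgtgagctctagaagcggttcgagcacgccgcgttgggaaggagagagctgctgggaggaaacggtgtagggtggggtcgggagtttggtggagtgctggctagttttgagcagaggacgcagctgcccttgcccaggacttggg
Mcm5, chr8:75109259-75109558 (+ strand): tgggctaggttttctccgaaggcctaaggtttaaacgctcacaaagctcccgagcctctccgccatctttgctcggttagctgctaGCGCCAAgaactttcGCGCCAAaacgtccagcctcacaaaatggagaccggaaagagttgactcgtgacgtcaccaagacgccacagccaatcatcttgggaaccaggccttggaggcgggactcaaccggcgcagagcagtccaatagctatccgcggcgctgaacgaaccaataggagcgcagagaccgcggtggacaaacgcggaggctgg
Mcm7, chr5:138171834-138172133 (- strand): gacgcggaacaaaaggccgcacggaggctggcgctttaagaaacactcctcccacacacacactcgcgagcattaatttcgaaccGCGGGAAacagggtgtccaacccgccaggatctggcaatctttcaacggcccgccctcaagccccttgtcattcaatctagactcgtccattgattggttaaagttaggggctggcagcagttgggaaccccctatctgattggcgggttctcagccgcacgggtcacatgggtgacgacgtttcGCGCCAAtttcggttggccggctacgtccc
Pold3, chr7:100121453-100121752 (- strand): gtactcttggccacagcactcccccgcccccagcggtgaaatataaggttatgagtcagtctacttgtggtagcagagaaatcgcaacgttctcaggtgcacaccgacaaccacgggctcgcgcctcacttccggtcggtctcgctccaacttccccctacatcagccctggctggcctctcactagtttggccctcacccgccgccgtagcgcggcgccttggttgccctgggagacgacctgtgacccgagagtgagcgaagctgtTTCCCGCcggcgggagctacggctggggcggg
Rrm1, chr7:102441445-102441744 (+ strand): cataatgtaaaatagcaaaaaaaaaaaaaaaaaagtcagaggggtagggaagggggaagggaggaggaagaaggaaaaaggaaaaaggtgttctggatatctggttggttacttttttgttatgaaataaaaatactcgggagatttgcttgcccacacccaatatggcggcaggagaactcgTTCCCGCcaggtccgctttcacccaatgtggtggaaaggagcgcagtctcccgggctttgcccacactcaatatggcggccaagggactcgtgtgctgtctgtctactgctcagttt
Pola1, chrX:93632106-93632405 (- strand): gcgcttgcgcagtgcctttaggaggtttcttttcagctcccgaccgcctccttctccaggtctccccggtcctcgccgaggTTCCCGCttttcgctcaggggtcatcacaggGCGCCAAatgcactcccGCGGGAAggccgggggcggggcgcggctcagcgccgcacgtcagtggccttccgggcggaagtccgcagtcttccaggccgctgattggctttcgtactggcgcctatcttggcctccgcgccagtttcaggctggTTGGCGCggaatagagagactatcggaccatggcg
Dbf4, chr5:8422667-8422966 (- strand): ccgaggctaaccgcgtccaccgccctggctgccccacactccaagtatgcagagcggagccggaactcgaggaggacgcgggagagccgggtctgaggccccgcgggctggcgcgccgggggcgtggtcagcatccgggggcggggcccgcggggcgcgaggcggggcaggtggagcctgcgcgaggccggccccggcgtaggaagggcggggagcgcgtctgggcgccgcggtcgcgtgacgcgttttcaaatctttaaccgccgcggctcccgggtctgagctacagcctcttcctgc

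Of the 8 licensing genes, 4 fell with Si2AK and 1 with Si1AK relative to SiC, with class medians of -0.46 and -0.21. Cdc6, the loader that brings the MCM ring to origins, was the member of this class called with both. Cdc6 (probe at chr11:98782986-98783045, mm9) had log2 levels of 0.58, 0.55, 0.61 and 0.65 on the Si1AK arrays, 0.29, 0.27 and 0.12 on the Si2AK arrays, 1.0, 0.91 and 0.95 on the SiC arrays, and 1.19, 1.12, 1.07 and 0.91 on the NT arrays. On this probe every Si2AK array lay below every Si1AK array, which lay below every control array, and SiC and NT overlapped. A dimmer Cdc6 probe gave -0.12 for Si2AK against Si1AK (adjusted p = 0.618), where this one gave -0.37 (adjusted p = 0.00906). Means were 0.60 ± 0.043 (SD, n = 4) with Si1AK and 0.23 ± 0.097 (n = 3) with Si2AK, against 0.95 ± 0.044 (n = 3) with SiC and 1.07 ± 0.117 (n = 4) in NT. The difference from SiC was -0.73 ± 0.084 (SE, adjusted p = 0.000405) with Si2AK and -0.35 ± 0.079 (adjusted p = 0.0278) with Si1AK. Leaving out each of the 7 Si1AK and SiC arrays in turn gave the Si1AK difference of Cdc6 adjusted p-values of 0.0455 to 0.0892, and the call held in 1 of the 7 fits, that without Si1AK replicate 4.

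Of the origin recognition complex, the set held 5 genes, and Orc4 was counted with the other replication genes below. Orc3 and Orc5 were called lower with Si2AK against SiC, at -0.63 (adjusted p = 0.00334) and -0.53 (adjusted p = 0.0303), and Orc1, Orc2 and Orc6 were not. With Si1AK none of the 5 was called against SiC (limma), and none passed an unadjusted p of 0.05. Orc3 was at 3.33 ± 0.092 with Si1AK and 2.55 ± 0.187 with Si2AK, against 3.18 ± 0.158 with SiC and 3.29 ± 0.047 in NT (SD). Its Si2AK arrays lay below all others, and the difference of Si2AK from Si1AK was -0.78 ± 0.102 (adjusted p = 0.000483). A much dimmer Orc3 probe was not called with Si2AK in a limma fit over probes. It gave -0.49 against Si1AK (adjusted p = 0.155), -0.53 against SiC (adjusted p = 0.142) and -0.13 against NT (adjusted p = 0.764). The Orc5 call was lost under the other 3 normalizations, with differences of -0.34 to -0.45. Geminin (Gmnn), the inhibitor of CDT1, was at -0.37 with Si2AK (adjusted p = 0.0245) and -0.34 with Si1AK (adjusted p = 0.0544). Cdt1 itself was not called against SiC, at -0.53 and -0.30 (adjusted p = 0.0989 and 0.385), and was called lower than NT with Si2AK, at -0.82.

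The helicase class held 15 genes, of which 9 fell with Si2AK and 4 with Si1AK relative to SiC. All of Mcm2 to Mcm7 were lower with Si2AK than with SiC, by -0.47 to -0.68, and all 6 were lower than NT with either siRNA. The Mcm6 call with Si1AK against NT was lost with the authors' value table (-0.29 in place of -0.45, adjusted p = 0.0508) and held in 4 of 8 fits that left out an array. With Si1AK the difference from SiC was -0.25 to -0.49, and only Mcm5 and Mcm7 were called, while all 6 passed an unadjusted p of 0.05.

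Mcm7 (probe at chr5:138605925-138605984, mm9) had log2 levels of 4.88, 4.96, 5.08 and 5.04 on the Si1AK arrays, 4.83, 4.83 and 4.74 on the Si2AK arrays, 5.30, 5.57 and 5.58 on the SiC arrays, and 5.42, 5.57, 5.64 and 5.74 on the NT arrays. Both siRNA groups lay below both control groups with no overlap. Its difference from SiC was -0.68 ± 0.104 with Si2AK (adjusted p = 0.00168) and -0.49 ± 0.097 with Si1AK (adjusted p = 0.0159), or 1.60-fold and 1.41-fold lower. Mcm5 (probe at chr8:77651350-77651410) had log2 levels of 3.98, 4.0, 4.12 and 3.95 on the Si1AK arrays, 4.12, 3.77 and 3.83 on the Si2AK arrays, 4.32, 4.52 and 4.61 on the SiC arrays, and 4.45, 4.57, 4.62 and 4.69 on the NT arrays. For this subunit the siRNA groups overlapped each other and stayed below all control arrays. Mcm5 differed from SiC by -0.58 ± 0.113 with Si2AK (adjusted p = 0.00631) and -0.47 ± 0.105 with Si1AK (adjusted p = 0.0279). The Si1AK calls of Mcm5 and Mcm7 were lost in 5 and 4 of the 7 fits that left out 1 array.

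Mcm8 and Mcm10 lie outside the ring. Mcm10, which helps to start the helicase, was at -0.91 ± 0.119 with Si2AK against SiC (adjusted p = 0.000695) and at -0.25 with Si1AK (adjusted p = 0.257). Mcm8, known for roles in recombination, was called lower with Si1AK against SiC at -0.53 (adjusted p = 0.0281), beside -0.41 with Si2AK (adjusted p = 0.0533). That call depends on the normalization: under the other 3 settings the Mcm8 difference was -0.01 to -0.02. Its levels were low, with means of -2.13 ± 0.118 with Si1AK and -1.60 ± 0.210 with SiC. A further Mcm8 probe was nearly as bright (mean level -1.82 beside -1.79). In a limma fit over probes it was called lower than SiC with both, at -0.63 with Si1AK (adjusted p = 0.0115) and -0.47 with Si2AK (adjusted p = 0.0313).

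Of the 4 GINS genes, which form 1 complex, Gins1 alone was called against SiC, with either siRNA. Gins1 (probe at chr2:150756868-150756927, mm9) had log2 levels of 2.26, 2.46, 2.42 and 2.55 on the Si1AK arrays, 2.26, 2.08 and 2.18 on the Si2AK arrays, 2.84, 3.09 and 2.97 on the SiC arrays, and 2.95, 3.02, 3.03 and 2.98 on the NT arrays. Its siRNA arrays were all below its control arrays. Gins1 differed from SiC by -0.79 ± 0.092 with Si2AK (adjusted p = 0.000405) and by -0.54 ± 0.086 with Si1AK (adjusted p = 0.00479). It was the only Si1AK call that held whichever array was left out (adjusted p 0.00484 to 0.0236). Gins2 and Gins3 were at 0.06 and 0.10 with Si2AK against SiC (adjusted p = 0.862 and 0.598), and Gins4 was at -0.08 (adjusted p = 0.696). The signs of Gins2 and Gins3 with Si2AK turned under the other normalizations, to values from -0.01 to -0.04.

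Dbf4 and Cdc7 encode the activating subunit and the kinase of a single complex. Dbf4 (probe at chr5:8397489-8397548, mm9) had log2 levels of 1.63, 1.32, 1.73 and 1.53 on the Si1AK arrays, 0.65, 0.24 and 0.59 on the Si2AK arrays, 1.69, 1.81 and 1.97 on the SiC arrays, and 1.69, 1.82, 2.06 and 1.87 on the NT arrays. The Si2AK arrays stood clear below all others, and the Si1AK arrays overlapped both controls. Dbf4 had the largest difference of all members, -1.33 ± 0.143 for Si2AK against SiC (2.52-fold lower, adjusted p = 0.000268), and -0.27 ± 0.134 for Si1AK (adjusted p = 0.305).

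Cdc7 (probe at chr5:107398228-107398287, mm9) was a dim gene with wide spread. It had log2 levels of -3.25, -3.69, -3.33 and -3.10 on the Si1AK arrays, -3.72, -2.20 and -3.21 on the Si2AK arrays, -2.21, -3.04 and -3.07 on the SiC arrays, and -2.77, -2.76, -2.96 and -2.25 on the NT arrays. Both arrays with raised signal, SiC replicate 1 and Si2AK replicate 2, were the highest of their groups. The differences from SiC were -0.27 ± 0.356 with Si2AK (adjusted p = 0.745) and -0.57 ± 0.333 with Si1AK (adjusted p = 0.372), neither was called, and both turned positive under the other 3 normalizations (0.05 to 0.51). Cdc45 was not called in any siRNA comparison with a control, at -0.57 and -0.43 against SiC (adjusted p = 0.0766 with Si2AK and 0.225 with Si1AK).

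**Figure D3:**
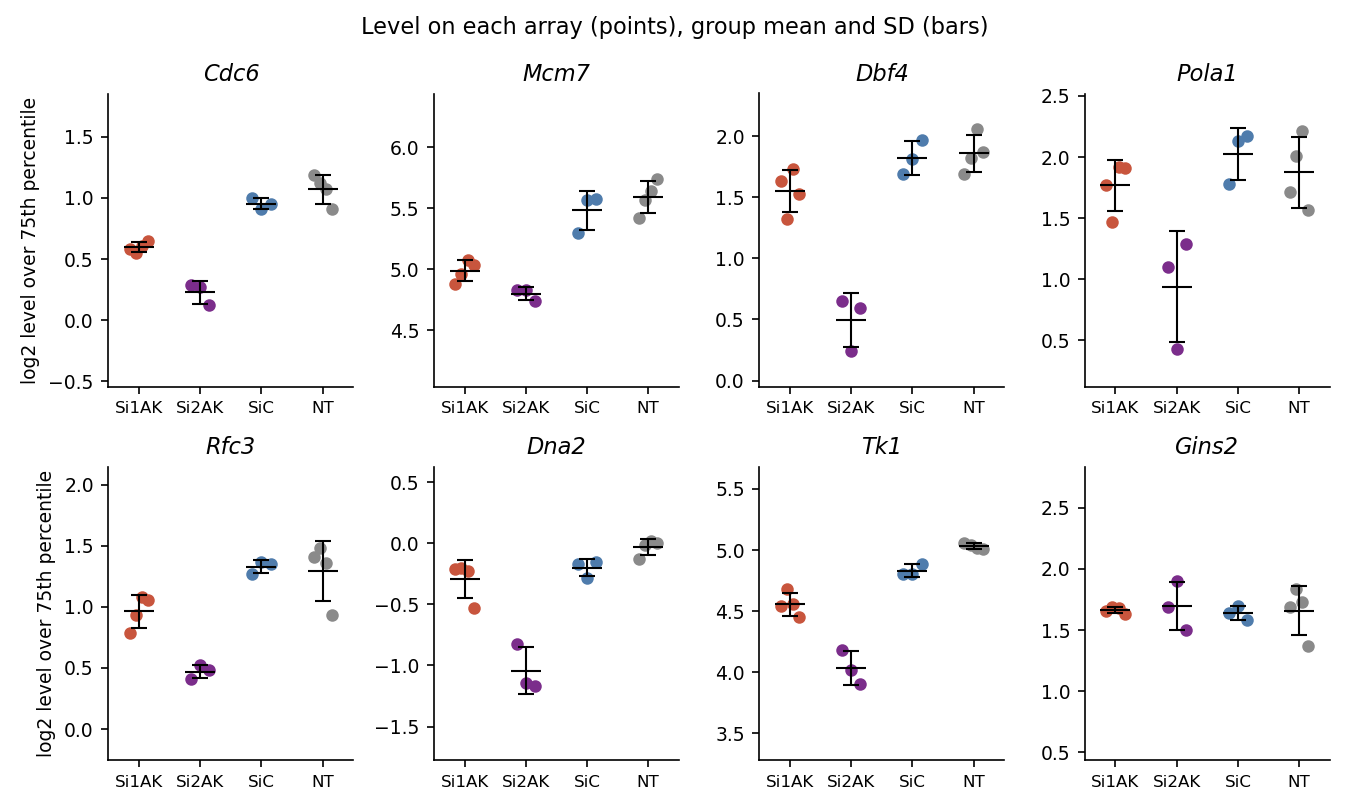
Log2 level over the 75th percentile of the array (y axis) for 8 members, with points for single arrays and bars for the group mean and SD (Si1AK n = 4, Si2AK n = 3, SiC n = 3, NT n = 4). For Cdc6 and Tk1 the Si1AK arrays lie between the Si2AK arrays and the controls, for Dbf4, Pola1 and Dna2 the Si2AK arrays lie below all others, and Gins2 overlaps in all groups.

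Among the 9 polymerase genes, 7 fell with Si2AK and 1, Pold3, with Si1AK relative to SiC. All 9 were lower than NT with Si2AK, and 1 with Si1AK. Pola1, the catalytic subunit of the polymerase that starts each strand, had the largest difference of the class. Pola1 (probe at chrX:90550189-90550248, mm9) had log2 levels of 1.77, 1.47, 1.92 and 1.91 on the Si1AK arrays, 1.10, 0.43 and 1.29 on the Si2AK arrays, 1.78, 2.13 and 2.17 on the SiC arrays, and 1.71, 2.01, 2.21 and 1.57 on the NT arrays. Si2AK arrays were below all others, with replicate 2 lowest, and the other 3 groups overlapped. Its difference from SiC was -1.08 ± 0.232 with Si2AK (2.12-fold lower, adjusted p = 0.0103) and -0.26 ± 0.217 with Si1AK (adjusted p = 0.519). Without Si2AK replicate 2, the Pola1 difference of Si2AK from Si1AK was -0.57 in place of -0.83 and was no longer called.

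Pola2 and Prim1, the second subunit and the primase that makes the RNA primer, were at -0.62 and -0.51 with Si2AK against SiC (adjusted p = 0.0242 and 0.00262), and Prim2 was at -0.26 (adjusted p = 0.0783). With Si1AK none of the 4 genes of this complex was called against SiC (limma), and none passed an unadjusted p of 0.05. Both polymerase epsilon genes, Pole and Pole2, were lower with Si2AK, at -0.67 (adjusted p = 0.0034) and -0.63 (adjusted p = 0.00794). A dimmer probe of Pole gave 0.02 for the same comparison, so its probes disagree.

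Pold3, an accessory subunit of polymerase delta, was the polymerase gene called with both siRNAs. Pold3 (probe at chr7:107230645-107230704, mm9) had log2 levels of 2.12, 2.26, 2.33 and 2.50 on the Si1AK arrays, 2.20, 2.22 and 2.26 on the Si2AK arrays, 2.56, 2.92 and 2.80 on the SiC arrays, and 2.95, 3.08, 2.86 and 2.95 on the NT arrays. The siRNA groups overlapped each other and lay below the controls, and SiC replicate 1 was the lowest control array. Pold3 differed from SiC by -0.54 ± 0.113 with Si2AK (adjusted p = 0.0095) and by -0.46 ± 0.106 with Si1AK (adjusted p = 0.0329), and the Si1AK call held in 2 of the 7 fits that left out 1 array. Pold1, the catalytic subunit, was at -0.52 with Si2AK (adjusted p = 0.0166), and Pold2 was at -0.38 (adjusted p = 0.0731).

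Pcna and the 5 clamp loader genes gave 4 calls with Si2AK and none with Si1AK against SiC (limma, 4 of 6 at an unadjusted p below 0.05). Rfc3, a small subunit of the loader, led the class. Rfc3 (probe over chr5:152448247-152450045, mm9) had log2 levels of 0.79, 0.93, 1.08 and 1.06 on the Si1AK arrays, 0.41, 0.52 and 0.48 on the Si2AK arrays, 1.27, 1.37 and 1.35 on the SiC arrays, and 1.41, 1.48, 1.36 and 0.93 on the NT arrays. Si2AK arrays were lowest throughout, Si1AK arrays were below SiC, and NT replicate 4 fell among the Si1AK values. The difference from SiC was -0.86 ± 0.133 with Si2AK (1.82-fold lower, adjusted p = 0.00172) and -0.36 ± 0.124 with Si1AK (adjusted p = 0.135). Rfc4 and Rfc5 were at -0.77 and -0.40 with Si2AK (adjusted p = 0.00336 and 0.0119), and Pcna, the sliding clamp, at -0.51 (adjusted p = 0.017). Rfc1, the large subunit, and Rfc2 were at -0.56 and -0.28 and were not called (adjusted p = 0.0591 and 0.112).

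Replication protein A coats single-stranded DNA, and all 3 of its genes fell with Si2AK relative to SiC, Rpa1 in only 1 of the 6 fits that left out an array (adjusted p up to 0.124). None was called with Si1AK (limma, 1 of 3 at an unadjusted p below 0.05). Rpa3 (probe over chr6:8206247-8206753, mm9) had log2 levels of 4.38, 4.53, 4.44 and 4.64 on the Si1AK arrays, 4.0, 3.87 and 4.14 on the Si2AK arrays, 4.45, 4.90 and 4.79 on the SiC arrays, and 4.76, 5.02, 4.82 and 4.72 on the NT arrays. Only the Si2AK arrays were clear of SiC, since SiC replicate 1 lay among the Si1AK arrays. It differed from SiC by -0.70 ± 0.129 with Si2AK (adjusted p = 0.00453) and by -0.21 ± 0.121 with Si1AK (adjusted p = 0.355). Rpa2 (probe at chr4:132333990-132334049) had log2 levels of 0.77, 0.83, 1.04 and 1.02 on the Si1AK arrays, 0.68, 0.75 and 0.64 on the Si2AK arrays, 1.06, 1.42 and 1.36 on the SiC arrays, and 1.43, 1.46, 1.39 and 1.38 on the NT arrays. Both siRNA groups lay below the controls, by -0.59 ± 0.104 with Si2AK (adjusted p = 0.00365) and -0.37 ± 0.097 with Si1AK (adjusted p = 0.0591) relative to SiC. Rpa1, the largest subunit, was at -0.40 with Si2AK (adjusted p = 0.0376) and at -0.01 with Si1AK.

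**Figure D4:**
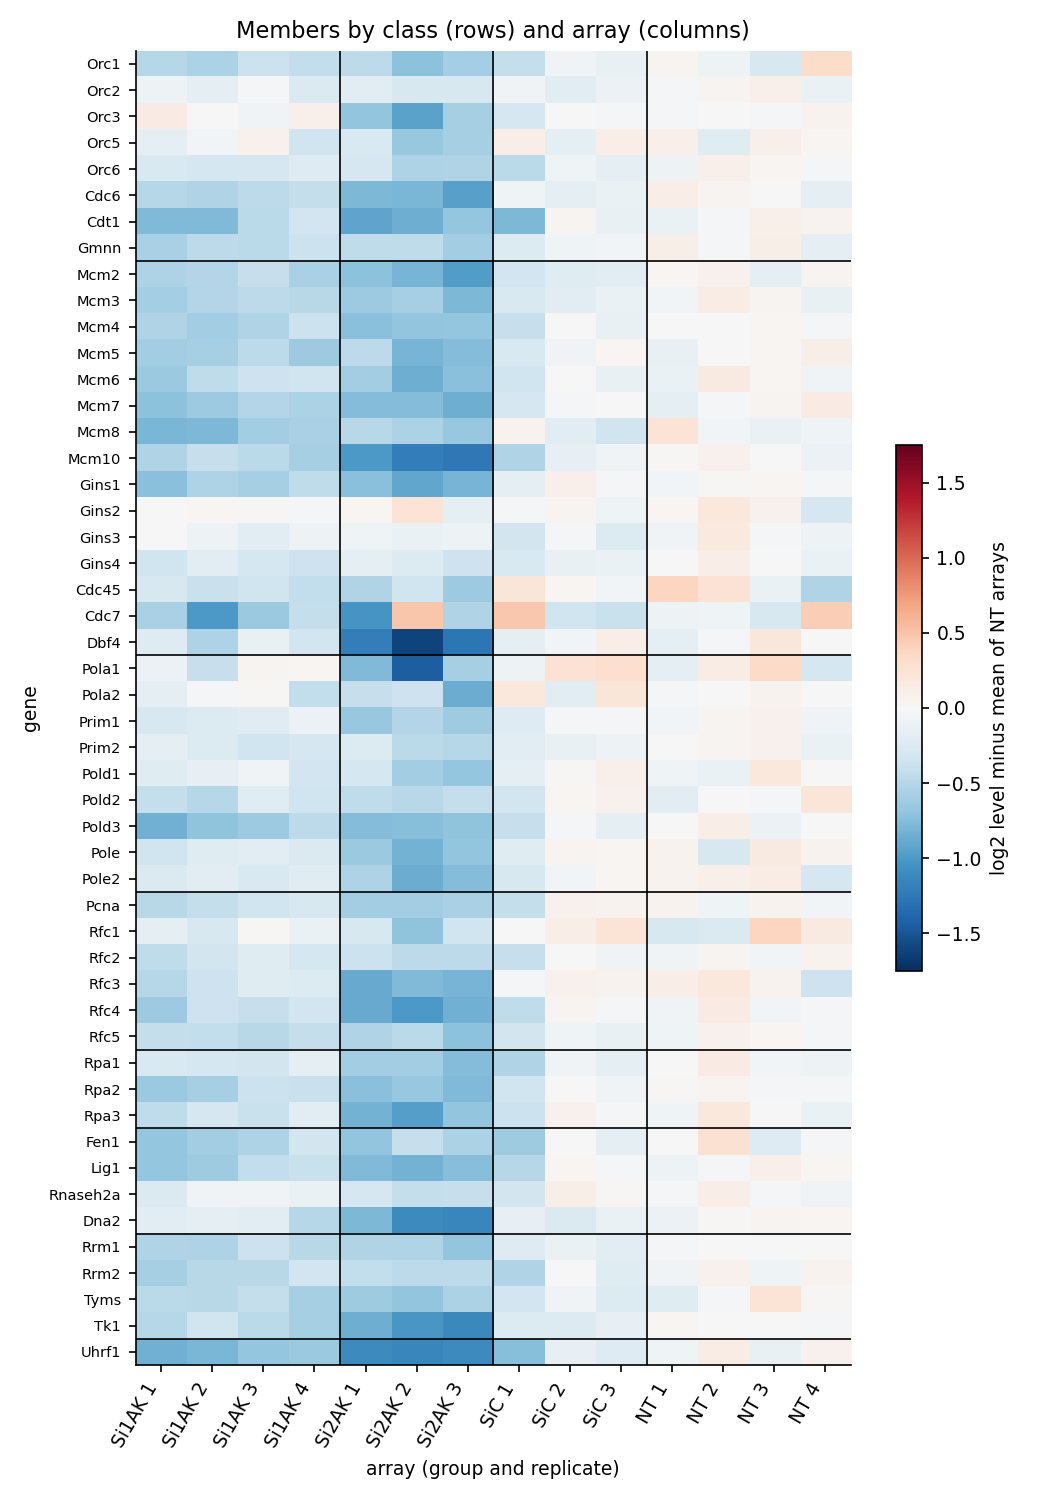
Log2 level minus the mean of the NT arrays for each member (down the page, in class order) on each array (across, Si1AK, Si2AK, SiC, NT), with the colour scale in log2 units. Members below the NT mean number 45 to 48 on the Si1AK arrays and 48 to 50 on the Si2AK arrays, against 32 to 45 on the SiC arrays and 18 to 35 on the NT arrays.

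In the maturation of Okazaki fragments, Dna2 and Lig1 were called with Si2AK against SiC and none of the 4 genes with Si1AK (limma, 1 at an unadjusted p below 0.05). Dna2, a nuclease and helicase that trims long flaps, led the class. Dna2 (probe at chr10:62436422-62436481, mm9) had log2 levels of -0.21, -0.20, -0.23 and -0.53 on the Si1AK arrays, -0.82, -1.14 and -1.17 on the Si2AK arrays, -0.17, -0.28 and -0.15 on the SiC arrays, and -0.13, -0.01, 0.02 and 0.00 on the NT arrays. Its Si1AK arrays overlapped SiC, and the Si2AK arrays were below every other array. The difference from SiC was -0.84 ± 0.115 with Si2AK (adjusted p = 0.00087) and -0.09 ± 0.108 with Si1AK (adjusted p = 0.641), and Si2AK differed from Si1AK by -0.75 ± 0.108 (adjusted p = 0.000853).

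Lig1 (probe at chr7:13896609-13896667, mm9), the ligase that seals the nicks, had log2 levels of 4.58, 4.63, 4.82 and 4.86 on the Si1AK arrays, 4.48, 4.42 and 4.50 on the Si2AK arrays, 4.75, 5.29 and 5.23 on the SiC arrays, and 5.16, 5.22, 5.34 and 5.28 on the NT arrays. SiC replicate 1 sat with the Si1AK arrays, well under the other SiC arrays. Lig1 differed from SiC by -0.62 ± 0.133 with Si2AK (adjusted p = 0.01) and -0.37 ± 0.124 with Si1AK (adjusted p = 0.13), and it was lower than NT with both (adjusted p = 0.00144 and 0.0173). Fen1 and Rnaseh2a were at -0.28 and -0.31 with Si2AK against SiC (adjusted p = 0.35 and 0.0839). For Rnaseh2a, the catalytic subunit that removes RNA primers, 4 dimmer probes gave -0.82 ± 0.094, -0.35 ± 0.094, 0.45 ± 0.493 and -0.52 ± 0.291 (SE). In a limma fit over probes, those at -0.82 and -0.35 were called lower (adjusted p = 0.000481 and 0.0328). Those at 0.45 and -0.52 were not (adjusted p = 0.688 and 0.321), so the size of the difference depends on the probe.

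Of the 4 nucleotide synthesis genes, 3 were lower with Si2AK and 1 with Si1AK relative to SiC, and all 4 were lower than NT with either. Tk1, the thymidine salvage kinase, had the largest difference. Tk1 (probe at chr11:117676845-117676904, mm9) had log2 levels of 4.54, 4.68, 4.56 and 4.45 on the Si1AK arrays, 4.18, 4.02 and 3.90 on the Si2AK arrays, 4.80, 4.80 and 4.89 on the SiC arrays, and 5.06, 5.04, 5.02 and 5.01 on the NT arrays. The 4 groups did not overlap, with Si2AK lowest, then Si1AK, SiC and NT. Against SiC, Tk1 was at -0.80 ± 0.086 with Si2AK (1.74-fold lower, adjusted p = 0.000278) and -0.27 ± 0.081 with Si1AK (adjusted p = 0.0876), and Si2AK was below Si1AK by -0.52 ± 0.081 (adjusted p = 0.00137). SiC was itself at -0.20 ± 0.081 against NT, which was not called (adjusted p = 0.636).

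Rrm1, the large subunit of ribonucleotide reductase, was called with both. Rrm1 (probe at chr7:109617223-109617283, mm9) had log2 levels of 4.97, 4.96, 5.13 and 5.02 on the Si1AK arrays, 4.98, 4.98 and 4.81 on the Si2AK arrays, 5.27, 5.39 and 5.31 on the SiC arrays, and 5.48, 5.51, 5.50 and 5.51 on the NT arrays. The siRNA groups overlapped each other and lay below SiC, which lay below NT. It differed from SiC by -0.40 ± 0.076 with Si2AK (adjusted p = 0.00523) and by -0.30 ± 0.071 with Si1AK (adjusted p = 0.0344), and the Si1AK call held in 2 of the 7 fits that left out 1 array. Rrm2, the small subunit, was not called against SiC, at -0.20 and -0.22 (adjusted p = 0.342 with Si2AK and 0.305 with Si1AK).

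Tyms, thymidylate synthase, was called lower with Si2AK against SiC, at -0.42 (adjusted p = 0.0306), beside -0.28 with Si1AK (adjusted p = 0.17). That call depends on the normalization. With the other 3 normalizations the Si2AK difference was -0.02, -0.01 and 0.03, and the Si1AK difference turned to 0.21, 0.30 and 0.24. Against NT, both Tyms calls were lost as well under those 3 normalizations (adjusted p 0.172 to 0.251 with Si2AK and 0.505 to 0.609 with Si1AK). Tyms was dim, with means of -1.68 ± 0.071 with Si1AK and -1.82 ± 0.066 with Si2AK, against -1.40 ± 0.141 with SiC and -1.19 ± 0.186 in NT.

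Uhrf1, which brings the maintenance DNA methyltransferase to newly copied DNA, showed the largest shift of SiC from NT. Uhrf1 (probe at chr17:56462770-56462829, mm9) had log2 levels of 4.49, 4.53, 4.66 and 4.68 on the Si1AK arrays, 4.21, 4.19 and 4.21 on the Si2AK arrays, 4.58, 5.18 and 5.11 on the SiC arrays, and 5.26, 5.46, 5.20 and 5.4 on the NT arrays. The Si2AK arrays were lowest and nearly identical, and SiC replicate 1 lay among the Si1AK arrays. Uhrf1 was at -0.76 ± 0.140 with Si2AK (adjusted p = 0.00471) and -0.37 ± 0.131 with Si1AK (adjusted p = 0.149) against SiC, and SiC was at -0.37 ± 0.131 against NT (adjusted p = 0.636).

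The siRNAs against AK144841 were compared directly, and 15 members were lower with Si2AK than with Si1AK (background 6.15%). These were Orc3, Cdc6, Mcm2, Mcm10, Dbf4, Pola1, Prim1, Pole, Pole2, Rfc3, Rfc4, Rpa1, Rpa3, Dna2 and Tk1, with a median over all 50 members of -0.23 where all genes had 0.096. Of these 15 calls, 7 held whichever array was left out, and without Si2AK replicate 2 the count of calls was 7 (4.18% of all genes called lower). For Pole, the call rests on its brightest probe, since the mean of its probes gave 0.03 in place of -0.47. For Mcm5, Pold3 and Rrm1 the difference was -0.10, -0.08 and -0.10 (adjusted p = 0.6, 0.7 and 0.457). The Si1AK and Si2AK arrays of these 3 genes overlapped.

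A second reading came from other probes of the same genes. For 13 genes, 16 further probes passed the filter, and their difference was negative in 14 of 16 with Si2AK and in 16 of 16 with Si1AK against SiC. Of these probes, 9 and 3 were called lower in a fit over probes, where 4.05% and 1.21% of all probes were. For Si2AK against Si1AK, 11 of 16 were negative and 4 were called lower (5.24% of all probes). The dimmer Cdc6 probe gave -0.77 with Si2AK (adjusted p = 0.00327) and -0.65 with Si1AK (adjusted p = 0.0123). For Tk1 and Uhrf1, the further probes gave -1.02 and -0.92 with Si2AK (adjusted p = 0.000639 and 0.0129).

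Other genes of the same processes were read from lists set beside the members. Like the members, these lists were chosen with earlier results of these data known, so they are not an independent check. Of 24 other replication genes, 12 fell with Si2AK (background 4.67%) and 2 with Si1AK (background 1.22%) against SiC, with medians of -0.45 and -0.24. Between Si2AK and Si1AK, 2 of the 24 were lower and 1 higher (background 6.15% and 6.33%), with a median of -0.17. With Si2AK, Atad5 and Dscc1, both tied to unloading or loading of PCNA, were at -0.98 ± 0.254 and -0.95 ± 0.123 (adjusted p = 0.025 and 0.000695). With Si1AK, Ticrr and Recql4, which act in origin firing, were at -0.68 ± 0.123 and -0.53 ± 0.092 (adjusted p = 0.0105 and 0.00796). Of 33 other nucleotide synthesis genes, 8 fell with Si2AK (background 4.67%) and none with Si1AK (background 1.22%) against SiC (limma). With Si1AK, 5 were lower and 1 higher at an unadjusted p below 0.05, where 4019 of all 21348 genes passed in either direction. Dck, a deoxynucleoside salvage kinase, was at -0.64 ± 0.131 with Si2AK (adjusted p = 0.00801).

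Of 31 mitosis genes, 6 fell with Si2AK (background 4.67%) and 3 with Si1AK (background 1.22%) against SiC, with medians of -0.32 and -0.29. Relative to NT, 17 and 16 were lower (background 7.69% and 3.04%), with medians of -0.42 and -0.46. Between Si2AK and Si1AK their median was -0.01 and none was called (limma, none at an unadjusted p below 0.05), beside 15 of the 50 members. Whether these lists differ from each other was not tested. Ttk and Nuf2, a checkpoint kinase and a kinetochore protein, were at -0.70 ± 0.146 and -0.61 ± 0.165 with Si2AK against SiC (adjusted p = 0.00917 and 0.03). Kif2c, a microtubule depolymerase, was at -0.49 ± 0.113 with Si1AK (adjusted p = 0.0343). Cenpf was at -1.70 ± 0.430 with Si1AK (adjusted p = 0.0482), and its SiC arrays were at -2.07 on replicate 1 and at -3.59 and -3.39 on the others. That call was lost without SiC replicate 1 (-1.23) and under the other 3 normalizations (-0.26 to -0.56). Against NT, Cenpf was at -0.65 with Si1AK (adjusted p = 0.39) and at 1.05 with SiC (adjusted p = 0.636).

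Regulators of entry into S phase included a gene that rose. Cdkn1a encodes p21, an inhibitor of cyclin-dependent kinases, and had log2 levels of 4.60, 4.81, 4.52 and 4.26 on the Si1AK arrays, 4.43, 4.21 and 4.34 on the Si2AK arrays, 3.58, 3.72 and 3.86 on the SiC arrays, and 3.88, 3.74, 3.78 and 4.0 on the NT arrays. Every siRNA array against AK144841 was above every control array. Cdkn1a was higher than SiC by 0.61 ± 0.135 with Si2AK (adjusted p = 0.0123) and 0.83 ± 0.126 with Si1AK (adjusted p = 0.00387). Of the 17 regulators tested, 2 fell with Si2AK (background 4.67%) and none with Si1AK (background 1.22%) against SiC (limma), with medians of -0.02 and 0.02. With Si1AK, 4 were lower and 3 higher at an unadjusted p below 0.05, where 4019 of all 21348 genes passed in either direction. E2f7, a repressor of the E2F family, was at -0.49 ± 0.137 with Si2AK against SiC (adjusted p = 0.0343).

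Markers of other cell types were summed on each array, in multiples of the 75th percentile. Melanocyte genes summed to 2.27 to 2.55 on the Si1AK arrays and 3.89 to 4.18 on the Si2AK arrays, against 2.36 to 2.65 on the SiC arrays and 2.06 to 2.39 on the NT arrays, with 3 of 6 genes well above background on all arrays and Dct on 2 or fewer. The melanocyte genes did not move together. Of the 4 tested, 3 had a negative difference for Si2AK against SiC (median -0.29, lowest Mlana at -0.61). Mitf was at 0.97, and 1 of the 4 was called higher (limma, background 8.53%). Fibroblast genes summed to 1.07 to 1.57 and 1.58 to 2.10 on the Si1AK and Si2AK arrays, against 1.03 to 1.72 on SiC and 0.863 to 1.09 on NT, with 3 of 8 genes above on all arrays and Lum on 2 or fewer. Leukocyte genes (4 of 8 above on all arrays, Lyz2 on 2 or fewer) summed to 13.9 to 15.8, 10.9 to 11.9, 11.1 to 16.4 and 12.3 to 15.4 on the Si1AK, Si2AK, SiC and NT arrays. Endothelial genes (3 of 6, Tek on 2 or fewer) summed to 7.91 to 9.43, 8.86 to 11.6, 8.43 to 9.62 and 8.97 to 13.2 in that order. Keratinocyte genes summed to 672 to 760, 873 to 905, 614 to 795 and 797 to 921. Of the 9 keratinocyte genes tested, 6 were called higher with Si2AK against SiC (median 0.63, background 8.53% higher) and none with Si1AK (limma, median -0.05). The part of these differences in the replication results was not tested.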

How the data were processed

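RNA from 14 mSCC-38 samples was hybridised (600 ng) to 1-colour Agilent mouse arrays. Spot intensities were read with Feature Extraction 10.7.3.1, with background subtraction and detrending within each array and probes placed on mm9, per the file headers. The 0 or 1 spot marks (well above background, saturated, outlier, control) were also made there, per the file headers. The table deposited by the authors holds log2 values, each column having a median near 6.51, and its background step is not given in the sources used here. It names limma without a version, per the submitters' processing notes.

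Here log2 of the processed intensity minus the 75th percentile of each array was used. Control spots and outlier spots were left out, spots of a probe were averaged, and a probe was kept (30288 of 55681) if, in any 1 group, all arrays marked it well above background. The brightest kept probe stood for a gene. The linear model with moderated variances of limma (version 3.58.1, run under R 4.3.3) was fitted over all 14 arrays, with Benjamini-Hochberg adjustment over 21348 genes and a threshold of 0.05. Tables and figures were made with Python 3.11.15. Scripts were tested on simulated data. The number of arrays limits the precision.

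The members and lists were chosen with earlier results of these data known. Values on every array are given, per class, for members called with both siRNAs against SiC and for the member with the largest difference in either comparison. From other lists, at most the 2 called genes with the largest difference in each siRNA comparison with SiC are named, and 1 such gene is not reported here. Mean levels of Orc3, Mcm8 and Tyms were added after their values were seen. Groups share replicate numbers in the titles, but nothing says what a number marks. Same-numbered deviations correlated above 0.1 in all 4 pairs only for Si1AK with NT (0.118 to 0.24). Same-numbered arrays of these groups lay on the same slide, where pairs of unlike number correlated at 0.088 to 0.307. The fit with the number as a block left the count of calls for Si1AK against NT at 24. Alternatives covered background correction, normalization, the authors' table, the filter, probe averaging, slide, replicate block, the groups fitted, array weights and left-out arrays.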

Additional observations from a re-analysis of the deposited data

Results flagged for a closer look

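Dna2 on Si1AK replicate 4 was at -0.53, apart from the other 3 Si1AK arrays at -0.23 to -0.20. The gap to its nearest neighbour was 0.929 of the range of the group, above Dixon's 95% critical value of 0.829 for 4 samples. It was the only value set apart in this way among 32 groups of 4 arrays tested over 16 genes, and chance sets apart about 1 group in 20.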

How the results depend on the processing

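Counts of members called (limma) were 7 for Si1AK and 33 for Si2AK against SiC, 24 and 43 against NT, and 15 for Si2AK against Si1AK. For Si1AK against SiC the count was 18 with normexp background and quantile normalization (1.84% of all genes called lower), 20 with quantile normalization (1.67%), 16 with the authors' value table (1.73%) and 1 with no filter on dim probes (0.25%). It was 4 with the replicate block (0.98%), 43 with array weights (42 lower, 1 higher, in a fit that called 17.55% of all genes lower) and 14 without both arrays of raised signal (1.53%). With only the groups compared it was 0, in a fit that called 0.34% of all genes lower (17 members at an unadjusted p below 0.05). Slides 1 and 2 alone gave median differences of -0.12 and -0.30. Leaving out 1 array in turn gave 1 to 14 calls, where 0.43% to 1.12% of all genes were called lower. For Si2AK against SiC the count was 0 with only the groups compared (0.09% of all genes called lower, 38 members at an unadjusted p below 0.05). It was 27 to 37 with 1 array left out (3.04% to 5.42% of all genes), and slides 1 and 2 alone gave medians of -0.36 and -0.63. Against NT, slides 1 and 2 alone gave 0 and 0 for Si1AK (32 and 31 at an unadjusted p below 0.05), where 0.01% and 0.04% of all genes were called lower. For Si2AK, slide 1 alone gave 10 (0.78% of all genes), and slide 2, with 1 Si2AK array, gave a median of -0.67. Leaving out 1 array gave 16 to 23 for Si1AK (1.36% to 2.32% of all genes) and 36 to 42 for Si2AK (5.1% to 6.86%). For Si2AK against Si1AK the count was 26 with normexp (8.53% of all genes called lower), 26 with quantile normalization (8.08%), 27 with the authors' table (8.11%) and 7 with no filter (2.35%). It was 7 to 13 with 1 array left out (4.18% to 5.24%), and slides 1 and 2 alone gave medians of -0.16 and -0.31. A slide alone leaves 1 to 2 arrays a group. With the slide as a block, 8 and 37 members were lower with Si1AK and Si2AK against SiC (2.25% and 5.95% of all genes). Among genes well above background on all arrays, 10 and 35 were (1.57% and 6.12% of those genes). The replicate block gave 33 (Si2AK against SiC, 4.49% of all genes), 24 and 45 (Si1AK and Si2AK against NT, 3.06% and 6.53%) and 13 (Si2AK against Si1AK, 5.6%). SiC against NT gave 0 in every setting run (limma, 9 members at an unadjusted p below 0.05 with the settings of the report).

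Some differences changed sign. Only Pole and Tyms among them had been called: Pole in Si2AK against Si1AK was 0.03 with the mean of its probes, and Tyms in Si2AK against SiC was 0.03 with the authors' table. Under normexp, quantile normalization and the authors' table in that order, Si1AK against SiC gave Orc5 0.05, 0.05 and 0.04, Gins2 -0.03, -0.04 and -0.04, Cdc7 0.17, 0.51 and 0.21, and Tyms 0.21, 0.30 and 0.24. Si2AK against SiC gave Gins2 -0.01, -0.02 and -0.03, Gins3 -0.02, -0.04 and -0.02, and Cdc7 0.15, 0.51 and 0.05. On slide 1 alone, Si1AK against SiC gave Orc6 0.18, Cdt1 0.01, Mcm10 0.06, Pole2 0.06, Rfc2 0.02, Rpa1 0.24, Rpa3 0.01 and Rnaseh2a 0.15, and Si2AK against SiC gave Orc6 0.05, Gins4 0.08, Fen1 0.07 and Rrm2 0.08. On slide 2 alone, Orc2 was 0.02 and Gins3 -0.01 with Si1AK, and Gins2 was -0.14 with Si2AK. Orc2 with Si1AK was 0.03 with the replicate block and 0.02 without both raised arrays, and Gins2 with Si2AK was -0.04 without both. With 1 array left out in turn, differences ran from -0.05 to 0.03 for Orc2, -0.16 to 0.04 for Orc6, -0.15 to 0.08 for Rpa1 and -0.19 to 0.02 for Rnaseh2a with Si1AK against SiC, and from -0.04 to 0.16 for Gins2 and -0.69 to 0.07 for Cdc7 with Si2AK against SiC. The cause was not tested.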
